A study of Gallus gallus with 50 samples.

Results

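PAX7 is a transcription factor with a paired domain and a homeodomain. In the chick embryo it is one of the early genes of the neural plate border, the strip of ectoderm between the forming brain and the future skin, and it is needed there for neural crest formation. Neural crest cells arise at this border, leave the dorsal neural tube and give rise to the skeleton of the face, peripheral neurons and glia, and pigment cells. PAX7 is also known from the dorsal neural tube and from progenitors of skeletal muscle, so that head cells other than neural crest can carry its RNA.

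The gene was taken as the row ENSGALG00000043204, 1 of the 24356 genes counted. It was selected on its measured difference between the sorted fractions at HH8, where it averaged 60.3 CPM in GFP-positive cells and 2.78 CPM in GFP-negative cells. CPM, the unit of every level below, are read counts scaled to the library size with TMM factors. Its values at HH8 are therefore given as a description, with no test of PAX7 in any contrast that holds an HH8 library. The files pair no identifier with a symbol, and the name PAX7 for this locus comes from outside them. On the GRCg6a assembly the gene lies on chromosome 21 from 4449679 to 4535824, on the plus strand. This span of 86146 bases holds 2203 bases of annotated exon, in 11 blocks of 66 to 493 bases, and the longest intron has 38729 bases. No other annotated gene overlaps the span, the nearest ones lying 5080 bases before its start and 16287 bases past its end.

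All embryos had been electroporated with the reporter ptk-TFAP2AE1-GFP, in which an enhancer of TFAP2A, a transcription factor of the border and of neural crest, drives GFP. Heads were dissected and dissociated, around 20 of them were pooled for a sample, and the cells were sorted. The groups NC_6 to NC_16 hold GFP-positive cells, labelled neural crest. The groups WE_6 to WE_16, labelled whole embryo, hold the GFP-negative cells of the dissected heads. Cells that did not take up the reporter or did not use it fall into the GFP-negative fraction whatever their type. The 6 stages run from HH6 to HH16 on the Hamburger-Hamilton scale, from the early neural plate through neural fold closure to crest migration. The authors' filtered table keeps 42 of 50 libraries, with 3 libraries per fraction at HH6, HH8, HH10 and HH14, 4 at HH12 and 5 at HH16. The labelled cell types could not be checked against marker genes, since the identifiers carry no symbols. In such bulk samples a lower share of PAX7-positive cells and less PAX7 RNA per cell cannot be told apart.

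Counted reads numbered 4869937 to 29316689 in the kept libraries, and 13 to 1681 of these fell on PAX7. The lowest counts stood in GFP-negative libraries, so that their levels are the least precise. The 13 reads of WE_6 replicate 3 gave 3.08 CPM with an exact 95% Poisson interval of 1.64 to 5.27 CPM, whereas the 1681 reads of NC_12 replicate 4 gave 84.8 CPM with an interval of 80.8 to 88.9 CPM. These intervals cover counting error only. Between libraries the gene varied about as much as others did, with a biological coefficient of variation of 0.419 in edgeR and with 52.02% of the tested genes at a lower dispersion.

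PAX7 RNA stood higher in every GFP-positive library than in any GFP-negative library of its stage from HH6 to HH14, and the fractions overlapped at HH16. The difference passed the test at HH6, HH10 and HH12, and did not pass it at HH14 and HH16. In GFP-positive cells the mean level was highest at HH8, with 51.6 to 52.4 CPM from HH10 to HH14 and 18.1 CPM at HH16. In GFP-negative cells the mean was lowest at HH8 and highest at HH16. Of the 15737 genes tested, 34 (0.216%) had every GFP-positive library above every GFP-negative library at each of the 5 stages from HH6 to HH14. These stages include HH8, on which PAX7 was selected, and no count without HH8 was made.

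**Figure D1:**
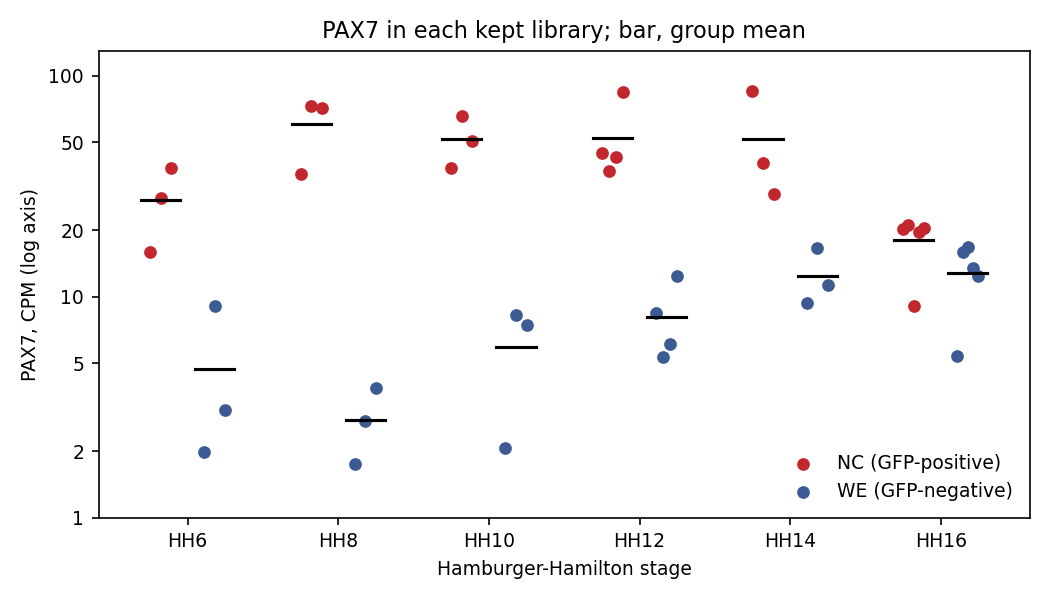
PAX7 level in each kept library (CPM, log axis) by Hamburger-Hamilton stage, with GFP-positive cells (NC_6 to NC_16) in red left of GFP-negative cells (WE_6 to WE_16) in blue; each point is a library and each bar a group mean. The fractions are apart from HH6 to HH14 and overlap at HH16, where the GFP-positive mean was 18.1 CPM and the GFP-negative mean 12.8 CPM.

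At HH6, when the border is being laid down, PAX7 stood at 15.9, 28.01 and 38.3 CPM in GFP-positive and at 1.99, 9.12 and 3.08 CPM in GFP-negative libraries. The lowest GFP-positive library lay above the highest GFP-negative library, and 7.4% of the tested genes were separated in this way at HH6. The means were 27.4 ± 11.2 CPM in GFP-positive and 4.73 ± 3.84 CPM in GFP-negative cells (SD, n = 3 each). On the log2 scale PAX7 was higher in GFP-positive cells by 2.50 with an SE of 0.53 (adjusted p = 0.0156 by edgeR), and 0.184% of genes were called higher. This call was lost without NC_6 replicate 2, NC_6 replicate 3, WE_6 replicate 1 or WE_6 replicate 3 (edgeR adjusted p up to 0.122), with limma voom (0.170), with the HH6 libraries alone in the fit (0.124) and with all 50 libraries (0.4663). Over all 10 alternatives that leave no single library out, the adjusted p at HH6 ran from 0.000350 to 0.4663.

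At HH8, when the neural folds rise, the gene stood at 36.2, 72.9 and 71.8 CPM in GFP-positive and at 1.75, 2.74 and 3.86 CPM in GFP-negative libraries. The fractions did not overlap, and 11.8% of genes were separated in this way at HH8. The means were 60.3 ± 20.9 CPM in GFP-positive and 2.78 ± 1.06 CPM in GFP-negative cells (SD, n = 3 each). The fitted log2 ratio was 4.43 with an SE of 0.58. At this stage 0.674% of genes were called higher in GFP-positive cells, and 12 genes (0.0763%) had a higher fold change than PAX7. The gene was selected on this difference, so that its high rank at HH8 is a description only.

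At HH10, when cranial crest begins to migrate, PAX7 stood at 38.4, 65.7 and 50.6 CPM in GFP-positive and at 2.07, 8.31 and 7.49 CPM in GFP-negative libraries. The fractions did not overlap, as for 7.51% of genes, and the GFP-negative library at 2.07 CPM, which held 16 PAX7 reads, lay well under the other GFP-negative libraries. The means were 51.6 ± 13.7 CPM in GFP-positive and 5.96 ± 3.39 CPM in GFP-negative cells (SD, n = 3 each). PAX7 was higher in GFP-positive cells by 3.08 on the log2 scale, with an SE of 0.54 (adjusted p = 0.00205 by edgeR). At this stage 0.241% of genes were called higher, and 198 genes (1.26%) had a higher fitted ratio. With each library left out in turn the call held (edgeR adjusted p from 0.00375 to 0.0280).

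At HH12 the GFP-positive libraries held 44.7, 37.3, 42.9 and 84.8 CPM and the GFP-negative libraries 8.46, 5.33, 6.13 and 12.5 CPM. A single GFP-positive library stood well above the others, and the fractions did not overlap, as for 4.07% of genes. The means were 52.4 ± 21.8 CPM in GFP-positive and 8.10 ± 3.21 CPM in GFP-negative cells (SD, n = 4 each). The log2 ratio was 2.69 with an SE of 0.46 (adjusted p = 0.000398 by edgeR), and 0.629% of genes were called higher. An exact two-sided permutation test of log2(CPM + 1) gave a mean difference of 2.54 with p = 0.0286, the smallest p that 4 against 4 libraries allow. The edgeR call was lost with all 50 libraries (adjusted p = 0.0742), at a like log2 ratio of 2.72, and the adjusted p at HH12 ran from 2.29e-07 to 0.0742 over the 10 alternatives.

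At HH14 the GFP-positive libraries held 85.5, 40.2 and 29.3 CPM and the GFP-negative libraries 9.38, 16.7 and 11.4 CPM. The GFP-positive libraries spread widely, and the fractions were still apart, as for 5.37% of genes. The means were 51.7 ± 29.8 CPM in GFP-positive and 12.5 ± 3.77 CPM in GFP-negative cells (SD, n = 3 each). The log2 ratio of 2.05, with an SE of 0.51, did not pass the threshold of 0.05 (edgeR adjusted p = 0.0516), which 5 genes (0.0318%) passed as higher. It passed with DESeq2 (adjusted p = 0.00429), with limma voom (0.0160) and in 4 further fits described with the processing, at log2 ratios of 1.905 to 2.095. Over all 10 such alternatives the adjusted p at HH14 ran from 0.00429 to 1.0. None of the 6 fits with 1 library left out passed (edgeR adjusted p from 0.0632 to 0.583). The ratio was lowest, at 1.49, without NC_14 replicate 1, the library at 85.5 CPM.

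At HH16 the GFP-positive libraries held 20.3, 21.1, 9.05, 19.7 and 20.5 CPM and the GFP-negative libraries 5.40, 15.9, 16.8, 13.5 and 12.5 CPM. All GFP-positive libraries but the one at 9.05 CPM lay above all GFP-negative libraries. Separation without exception, which PAX7 did not show here, was seen in 0.483% of genes. The share of genes separated but for 1 library was not counted. The means were 18.1 ± 5.09 CPM in GFP-positive and 12.8 ± 4.49 CPM in GFP-negative cells (SD, n = 5 each). The log2 ratio was 0.50 with an SE of 0.39 and did not pass (adjusted p = 0.656 by edgeR), where 0.0763% of genes were called higher. The exact two-sided permutation test gave a mean log2 difference of 0.50 with p = 0.198. With NC_16 replicate 3 kept and each other library left out in turn, p from this exact test ran from 0.190 to 0.397. The highest p came without WE_16 replicate 1, the library at 5.40 CPM, where the mean log2 difference fell to 0.24. Without NC_16 replicate 3 the exact test gave 0.71 with p = 0.0159, the smallest p that the remaining libraries allow. The edgeR fit without that library still did not pass. That library had the fewest genes with 10 or more reads of all kept libraries, at 11128, and its part in the result was not tested.

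Averaged over HH6, HH10, HH12, HH14 and HH16, PAX7 was higher in GFP-positive cells by 2.16 on the log2 scale, with an SE of 0.22 (adjusted p = 4.15e-09 by edgeR), and 3.18% of genes were called higher in this average. It held with each library left out in turn, between 2.05 and 2.36.

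Both libraries of a sort share a name in their titles, which allowed 19 comparisons within a pool of heads. The GFP-positive library was higher in 15 of the 16 pools of other stages than HH8. It was also higher in the HH8 pools, on which the gene was selected. The share of all genes that were higher in as many pools was not counted. The log2 ratios of GFP-positive to GFP-negative level were 2.999, 1.62 and 3.63 at HH6, 4.37, 4.74 and 4.22 at HH8, and 4.21 and 2.76 at HH10. They were 2.40, 2.81 and 3.79 at HH12, 3.19, 1.27 and 1.37 at HH14, and 1.91, 0.40, -0.89, 0.54 and 0.71 at HH16. The negative ratio belongs to the HH16 pool of NC_16 replicate 3, with 9.05 CPM in GFP-positive and 16.8 CPM in GFP-negative cells. The mean ratio was 2.75 at HH6, 4.44 at HH8, 3.48 at HH10, 1.94 at HH14 and 0.54 at HH16, and that of HH12 lay between those of HH6 and HH10. In 17 of the pools both libraries carried the same run identifier in their descriptions, so that these ratios are also values within a run. In the pool of NC_16 replicate 3 and in that of WE_10 replicate 2 the descriptions differ. Those of the named libraries add a further identifier, HJNG2BGX5. In the HH10 pool the first identifiers differ too, with HTNMMBGX3 for NC_10 replicate 1 and HTTM3BGX5 for WE_10 replicate 2. A fit with the pool as a block changed none of the calls at HH6, HH10, HH12, HH14 and HH16.

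**Figure D2:**
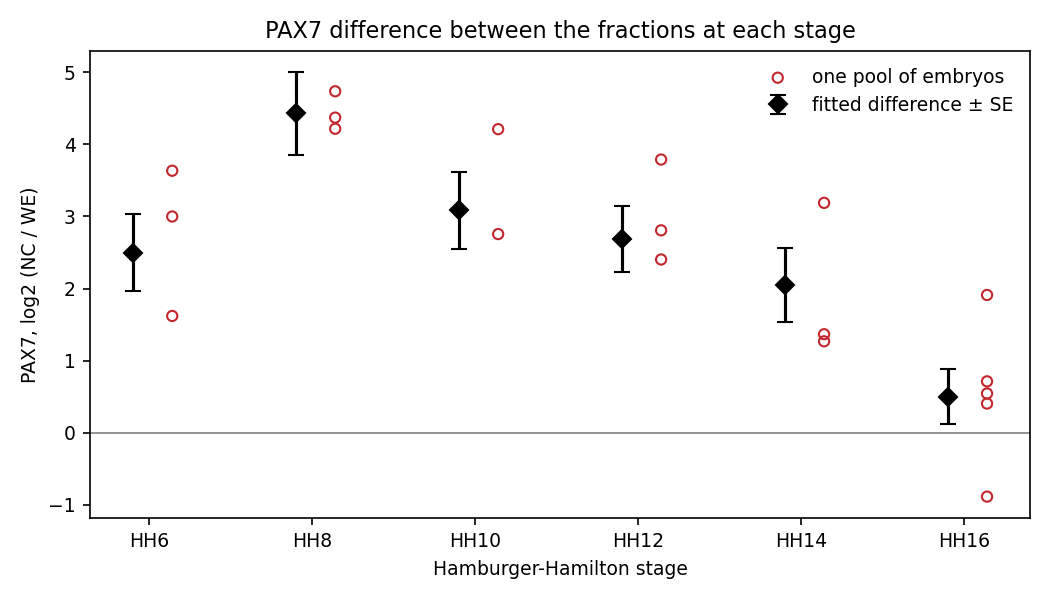
Log2 ratio of PAX7 level in GFP-positive over GFP-negative cells by stage; diamonds are the fitted differences with their SE as bars and circles are single pools of heads, and the line marks equal levels. The fitted difference is 4.43 at HH8 and 0.50 at HH16, where 1 of 5 pools lies below the line.

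Among GFP-positive cells no tested step between HH6 and HH14 passed. Those at HH10 differed from those at HH6 by 0.91 on the log2 scale, with an SE of 0.50 (adjusted p = 0.456 by edgeR). GFP-positive cells at HH12 and HH10 differed by 0.02 ± 0.46 (adjusted p = 0.999, edgeR), and those at HH14 and HH12 by -0.02 ± 0.46 (adjusted p = 1.0). The sign of these last 2 small changes depended on single libraries.

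At HH16 all 5 GFP-positive libraries, at 9.05 to 21.1 CPM, lay below all GFP-positive libraries of HH10, HH12 and HH14. They also lay below those of HH8, on which the gene was selected, and overlapped with those of HH6, at 15.9 to 38.3 CPM. The share of all genes separated in this way was not counted. Against HH10 the level fell by 1.51 on the log2 scale, with an SE of 0.43 (adjusted p = 0.0262 by edgeR), and 4.0% of genes were called lower in this comparison. The call was lost without NC_10 replicate 2, NC_10 replicate 4 or NC_16 replicate 3 (edgeR adjusted p up to 0.134) and with all 50 libraries (0.145), with a range of 0.00710 to 0.145 over the 10 alternatives. Against HH14 the change was -1.51 ± 0.43 (edgeR adjusted p = 0.0501), which did not pass, where 1.73% of genes were called lower. It passed without NC_14 replicate 3 (adjusted p = 0.0433, edgeR), with DESeq2 (0.0173) and with limma voom (0.0408), and not with the pool as a random effect in voom (0.0580), with a range of 0.0173 to 0.669 over the 10 alternatives.

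Runs that hold GFP-positive libraries of all 3 stages allow the comparison within a run. Among GFP-positive libraries of the run identifier HTNMMBGX3 the level was 38.4 CPM at HH10, 85.5 CPM at HH14 and 21.1 CPM at HH16. Those of HGM37BGX7 held 50.6 CPM at HH10, 29.3 CPM at HH14 and a mean of 20.1 CPM at HH16. HH16 was the lowest of the 3 stages in both runs. In HHTM3BGX5 the level was 65.7 CPM at HH10 and 40.2 CPM at HH14, and the library at 9.05 CPM at HH16 carries this identifier together with HJNG2BGX5, so that it cannot be placed in that run alone.

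Among GFP-negative cells the level was 4.73 ± 3.84 CPM at HH6, 2.78 ± 1.06 CPM at HH8, 5.96 ± 3.39 CPM at HH10, 8.10 ± 3.21 CPM at HH12, 12.5 ± 3.77 CPM at HH14 and 12.8 ± 4.49 CPM at HH16 (SD, n = 3 to 5). From HH8 on each stage had a higher mean than the one before, while HH8 stood below HH6. The gene was selected on HH8, and the step from HH8 to HH10 was not tested. None of the tested steps passed. GFP-negative cells at HH16 differed from those at HH10 by 1.08 on the log2 scale, with an SE of 0.47 (adjusted p = 0.190 by edgeR), where 1.77% of genes were called higher. The differences of HH10 against HH6, HH12 against HH10, HH14 against HH12 and HH16 against HH14 were 0.32, 0.42, 0.62 and 0.04 on the log2 scale, with edgeR adjusted p from 0.778 to 1.0. Within the run HGM37BGX7 the GFP-negative mean was 13.01 CPM at HH16 and 7.90 CPM at HH10. Its single GFP-negative libraries held 12.5 CPM at HH12 and 11.4 CPM at HH14, so that this run showed no rise between these stages. Those of HHTM3BGX5 held 6.13 CPM at HH12 and 16.7 CPM at HH14.

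Whether the difference between fractions itself changed with stage was tested as an interaction. Between HH16 and HH10 it differed by -2.58 on the log2 scale with an SE of 0.64, which had an unadjusted edgeR p of 0.00027 and did not pass over all genes (adjusted p = 0.181). Over the fits that left out a library the adjusted p ran from 0.0853 to 0.578 in edgeR, and DESeq2 gave an adjusted p of 0.0200, the lowest of the 10 other alternatives, which reached 0.458. Between HH10 and HH6 the interaction was 0.59 ± 0.71 (edgeR adjusted p = 0.937).

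Ordered by mean, the groups ran NC_8, NC_12, NC_14, NC_10, NC_6, NC_16, WE_16, WE_14, WE_12, WE_10, WE_6 and WE_8. The ranges of neighbours in this order overlapped except between NC_10, with a lowest library of 38.4 CPM, and NC_6, with a highest library of 38.3 CPM. That gap is no clear break in the order. The exact 95% Poisson intervals were 35.6 to 41.4 CPM for NC_10 replicate 1 and 35.4 to 41.2 CPM for NC_6 replicate 3. All GFP-positive groups stood above all GFP-negative groups in mean level. Per kilobase of exon, PAX7 reached 27.4 CPM per kb in GFP-positive cells at HH8, above 79.1% of the tested genes, and 1.26 CPM per kb in GFP-negative cells at that stage, above 24.9% of them. At HH16 it stood at 8.23 CPM per kb in GFP-positive cells, above 53.2% of genes, and at 5.82 CPM per kb in GFP-negative cells, above 44.7% of genes. Over all 6 stages it stood above 53.2% to 79.1% of genes in GFP-positive cells and above 24.9% to 44.7% of genes in GFP-negative cells.

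The genes whose pattern was most like that of PAX7 were looked for among 10541 genes with at least 10 CPM in their highest group, by Pearson's r of log2(CPM + 1) across the 42 libraries. The median r was 0.0246 and 9 genes exceeded 0.8. The most alike was ENSGALG00000002911 (chromosome 3, 56993933 to 57046070, plus strand), with an r of 0.871 over libraries and 0.936 over the 12 group means. Its mean levels from HH6 to HH16 were 88.9, 107, 113, 161, 118 and 121 CPM in GFP-positive and 32.6, 30.6, 39.2, 43.4, 54.6 and 54.5 CPM in GFP-negative cells. At HH8 these were 107 ± 14.9 CPM in GFP-positive and 30.6 ± 10.04 CPM in GFP-negative cells (SD, n = 3 each). Its GFP-positive mean was lowest at HH6, while that of PAX7 was lowest at HH16.

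The next was ENSGALG00000042686 (chromosome 8, 28132665 to 28133855, plus strand), with an r of 0.849 over libraries and 0.916 over group means. It averaged 77.1, 227, 240, 159, 195 and 59.4 CPM in GFP-positive cells from HH6 to HH16, and 13.6, 18.5, 18.2, 13.4, 16.5 and 13.1 CPM in GFP-negative cells. Its libraries spread widely, with 227 ± 117 CPM in GFP-positive and 18.5 ± 8.11 CPM in GFP-negative cells at HH8 (SD, n = 3 each). Like PAX7 it was lowest in GFP-positive cells at HH6 and HH16, while its GFP-negative level was not highest at HH16.

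The most opposite were ENSGALG00000031275 (chromosome 2, 97238238 to 97246235, minus strand) with an r of -0.847, and ENSGALG00000035629 (chromosome 1, 83813954 to 83865313, minus strand) with an r of -0.822. ENSGALG00000031275 averaged 33.01, 26.6, 30.7, 33.998, 27.2 and 40.4 CPM in GFP-positive and 77.9, 94.3, 66.6, 60.7, 58.1 and 46.7 CPM in GFP-negative cells from HH6 to HH16. ENSGALG00000035629 ran between 12.9 and 18.5 CPM in GFP-positive and between 20.99 and 35.9 CPM in GFP-negative cells. At HH8 ENSGALG00000031275 stood at 26.6 ± 4.37 CPM in GFP-positive and 94.3 ± 13.999 CPM in GFP-negative cells (SD, n = 3 each). Both genes had their highest GFP-negative mean at HH8, where the GFP-negative mean of PAX7 was lowest. These likenesses are descriptions over libraries that share stages, pools and runs. The genes were picked by r over these same libraries, HH8 included, so that their patterns are no separate evidence.

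**Figure D3:**
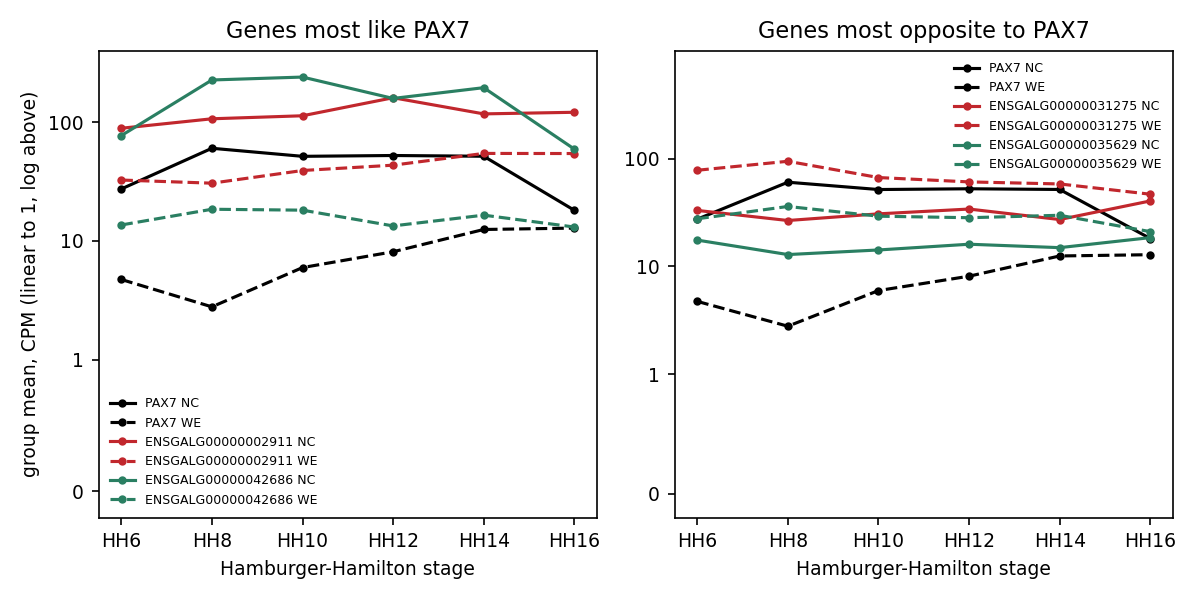
Group means (CPM, linear to 1 and log above) by stage of PAX7 in black with, left, the genes of highest and, right, the genes of lowest correlation with it; solid lines are GFP-positive and dashed lines GFP-negative cells. The alike genes stand higher in GFP-positive and the opposite genes higher in GFP-negative cells, and PAX7 at HH16 had means of 18.1 CPM in GFP-positive and 12.8 CPM in GFP-negative cells. The genes were picked by their correlation over these same libraries.

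Among the neighbours of PAX7 on the chromosome none was called. The 3 nearest genes on each side, 5080 to 60419 bases away, were all tested. In 36 tests of GFP-positive against GFP-negative over the 6 stages none was called by edgeR (lowest adjusted p = 0.105), DESeq2 or limma voom, and 2 had an unadjusted edgeR p under 0.05. Of all tested genes 0.432% to 2.4% were called per stage, so that no call in 36 tests says little about the neighbours. The log2 fold changes of the neighbours ran from -0.97 to 1.91, and their r with PAX7 from -0.49 to 0.37. The value of 1.91 belongs to ENSGALG00000033093 at HH10, at 0.440 CPM in GFP-positive and 0.0966 CPM in GFP-negative cells. That gene had 268 reads over all kept libraries.

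The 8 libraries left out by the authors, which the series describes as low in quality, went against the pattern in some cases, with levels here scaled over all 50 libraries. At HH8 the library labelled NC_8 replicate 4 held 3.59 CPM and the library labelled WE_8 replicate 4 held 85.1 CPM. Kept libraries of that stage held 37.5 to 76.0 CPM in GFP-positive and 1.80 to 3.86 CPM in GFP-negative cells, so that the order of the fractions was turned round in the left-out pool. At HH6 the library labelled NC_6 replicate 4 had 0 PAX7 reads of 512123. This allows up to 5.86 CPM at 3 counts, here on the raw library size without a TMM factor. The library labelled WE_6 replicate 4 held 22.8 CPM.

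At HH10 the left-out GFP-positive library held 145 CPM and the left-out GFP-negative library 2.74 CPM. At HH12 the left-out GFP-positive library held 35.4 CPM and the left-out GFP-negative library 5.21 CPM. These 4 libraries kept the order of the fractions. With all 50 libraries in the fit, the log2 ratio of GFP-positive over GFP-negative was 1.04 at HH8, against 4.43 with the kept libraries, and 1.21 at HH6, against 2.50.

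**Figure D4:**
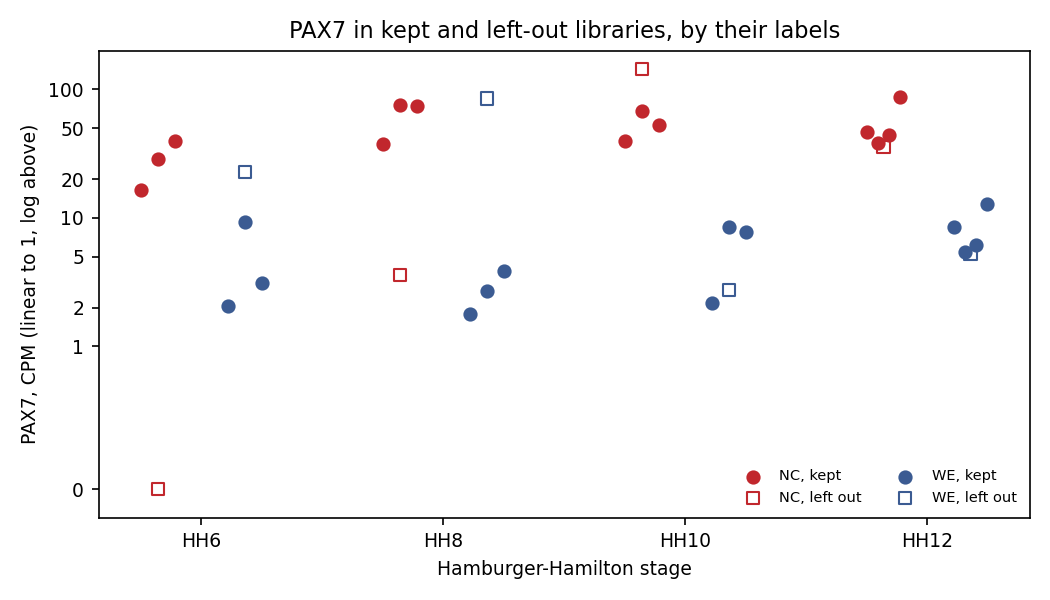
PAX7 level (CPM over all 50 libraries, linear to 1 and log above) in kept libraries as filled circles and in left-out libraries as open squares, by stage and label, with GFP-positive in red left of GFP-negative in blue. At HH8 the left-out libraries stand at 3.59 CPM for GFP-positive and 85.1 CPM for GFP-negative, on the opposite sides of the kept ones.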

How the data were processed

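The authors deposited whole-number counts of reads over the exons of each gene, from featureCounts 1.6.2 in reverse-stranded mode with Ensembl release 99 on GRCg6a, per the file headers. Reads were trimmed with cutadapt 2.10 and aligned with HISAT2 2.1.0, per the submitters' processing notes. No option for multi-mapping reads is set in the header, so such reads were not counted.

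The 42 libraries of the authors' filtered table were used. Groups came from the labels, which do not say beyond the pool names that libraries came from separate batches of embryos, so that p-values reflect the spread among libraries, which may be technical. Replicate libraries all differed by more than counting noise (lowest chi-square per degree of freedom 7.21). filterByExpr left 15737 genes and removed 8619. Counts were TMM-normalised and tested with edgeR 4.0.16 (quasi-likelihood, robust, all 12 groups in one fit), with Benjamini-Hochberg adjustment over all tested genes and a threshold of 0.05. The 18 tests of PAX7 hold no HH8 library in their contrasts. Alternatives used DESeq2 1.42.0, limma voom 3.58.1, other scaling, filters, libraries, first-named run as covariate and pool block. As WE_10 replicate 2 alone carried its first-named run, the fit with that covariate in effect gave this library no weight.

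The pairing comes from shared names in the titles. Deviations from group means correlated within every pair at 0.183 to 0.412 at HH6, 0.171 to 0.290 at HH8, 0.149 to 0.401 at HH12 and 0.293 to 0.664 at HH14, but at 0.00717 and 0.0921 at HH10 and from 0.0884 at HH16.

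Genes with a like or opposite pattern were the 2 with the highest and the 2 with the lowest r. The gene and these rules were chosen with earlier results of these data known. Lists of border, crest and cell type genes were not used, since 0 of 24356 identifiers could be matched to a symbol.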

Additional observations from a re-analysis of the deposited data

Results flagged for a closer look

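Among the 4 groups of 4 or 5 libraries, 2 held a library that lay far from the rest in PAX7 level. The rule used CPM without a log, and its rate of about 1 in 20 groups by chance holds for normally distributed values. On a log scale the libraries singled out can differ, which was not tested. NC_12 replicate 4 held 84.8 CPM while the other NC_12 libraries held 37.3 to 44.7 CPM, and its gap to the nearest took 0.843 of the group's range, above Dixon's critical value. NC_16 replicate 3 held 9.05 CPM while the other NC_16 libraries held 19.7 to 21.1 CPM, a gap of 0.888 of the range.

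Libraries left out by the authors held PAX7 above the highest kept GFP-negative library of their stage, on the scale of all 50 libraries. The library labelled WE_6 replicate 4 held 22.8 CPM, against a highest kept WE_6 library of 9.29 CPM. The library labelled WE_8 replicate 4 held 85.1 CPM, against 3.86 CPM for the highest kept WE_8 library. NC_10 replicate 3 held 145 CPM, against 8.43 CPM for the highest kept WE_10 library and 67.4 CPM for the highest kept NC_10 library. NC_12 replicate 5 held 35.4 CPM, against 12.8 CPM for the highest kept WE_12 library.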

How the results depend on the processing

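For the tested comparisons, 164 of 184 values under alternatives and 163 of 190 with 1 library left out had the same direction and side of the threshold. The second count includes 8 values of the exact test at HH12, which could not pass with a library left out. Both counts include steps whose adjusted p lay far above the threshold, so that they do not measure how stable the calls were. With all 50 libraries the log2 fold change was 1.21 at HH6 (edgeR adjusted p = 0.4663), 1.04 at HH8 and 2.72 at HH12 (0.0742), and -2.03 for GFP-positive cells at HH16 against HH10 (0.145). It turned to -0.60 for GFP-positive cells at HH12 against HH10, 0.078 for GFP-positive cells at HH14 against HH12 and -0.82 for GFP-negative cells at HH10 against HH6. HH14 passed at 2.04 with DESeq2 size factors (0.0490), 2.095 with a 1 CPM filter (0.0480), 2.02 with the first-named run as covariate (0.00699), 2.04 with DESeq2 (0.00429), 1.905 with limma voom (0.0160) and 2.08 without the 3 libraries of fewest detected genes (0.0189, chosen after seeing the data). GFP-positive cells at HH16 against HH14 passed in the first 5 of these fits at -1.52, -1.51, -1.22, -1.52 and -1.27. HH6 did not pass with the compared groups alone (2.50) or with voom (2.66), and the change between HH16 and HH10 differences passed with DESeq2 (-2.59). The cause was not tested.

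With 1 library left out at a time, log2 fold changes ran from 2.12 to 3.49 at HH6, 4.23 to 4.75 at HH8, 2.70 to 3.39 at HH10, 2.36 to 2.999 at HH12, 1.49 to 2.33 at HH14, 0.32 to 0.65 at HH16 and 2.05 to 2.36 on average. GFP-positive ranges were 0.64 to 1.23 for HH10 against HH6, -0.32 to 0.24 for HH12 against HH10, -0.60 to 0.30 for HH14 against HH12, -1.78 to -0.94 for HH16 against HH14 and -1.68 to -1.29 for HH16 against HH10. GFP-negative ranges were -0.051 to 1.32, 0.04 to 0.72, 0.35 to 0.91, -0.13 to 0.31 and 0.70 to 1.38 in the same order. Interactions ran from -0.40 to 0.97 and from -2.90 to -2.20. Exact permutation differences ran from 2.29 to 2.75 at HH12, with p = 0.0571 each time, the smallest that 3 against 4 allow, and from 0.24 to 0.71 at HH16. With the pool as a replicate block, HH6 gave 2.66 (adjusted p = 0.00857), HH10 3.39 (0.0107), HH12 3.001 (0.00147), HH14 1.92 (0.0518) and HH16 0.54 (0.476), and the block changed no call. GFP-negative libraries with few PAX7 reads limit the precision of ratios at HH6 to HH10.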

Other observations

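The left-out HH8 pool was turned round beyond PAX7. Of 376 other genes called between the kept HH8 fractions, 39 (10.4%) had the same sign of the GFP-positive minus GFP-negative difference in that pool, made up of 8 of 105 genes called higher and 31 of 271 called lower. In the left-out HH6 pool, 34 of 67 other called genes (50.7%) had the same sign. The library labelled NC_8 replicate 4 held 3238290 counted reads with 16842 genes at 10 or more reads, and the library labelled NC_6 replicate 4 held 512123 counted reads with 13769 such genes, while kept libraries had 11128 to 14725. The cause was not tested.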
